A study of Mus musculus with 5 samples.

Results

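Avp, Hcrt and Pmch encode 3 hypothalamic neuropeptide precursors, and they were followed here in single nuclei of the mouse paraventricular hypothalamic nucleus (PVH). They are 3 of the 31054 features in each count matrix, found by their symbols, and each symbol named 1 feature. On the mm10 assembly, with GENCODE M21 gene models, Avp (ENSMUSG00000037727) lies on the minus strand of chromosome 2 from 130580620 to 130582554. Its nearest protein-coding neighbour is Oxt, 3566 bases away on the opposite strand. Hcrt (ENSMUSG00000045471) lies on the minus strand of chromosome 11 from 100761069 to 100762931, and its nearest protein-coding neighbour is Kcnh4. Pmch (ENSMUSG00000035383) lies on the plus strand of chromosome 10 from 88091072 to 88092375, inside the span of Parpbp on the other strand.

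All 5 libraries came from male mice on a C57BL6 background that carry OT-Cre, a Cre driver of oxytocin neurons, and each pooled 2 to 4 mice. The saline and the VPA library came from OT-Cre; Rosa26tm9(CAG-tdTomato)Hze (Ai9) mice of 5 weeks, whose Cre-positive cells make a red fluorescent protein. Their mothers received 10 mL/kg saline or 500 mg/kg sodium valproate (VPA) on gestation day 12.5. The other 3 libraries came from VPA-exposed OT-Cre; Rosa26dreaddm3 (stop-hM3) mice of 5 to 7 weeks. In these, Cre switches on hM3D, a receptor that excites the cell when bound by clozapine-N-oxide (CNO). The library called hM3 control here received saline on postnatal day 2 (n = 1), and CNO replicates 1 and 2 received CNO on that day (n = 2). The study thus set VPA against saline, and CNO against saline in VPA-exposed hM3 mice. Nuclei were gated by DAPI with a preference for large ones, so shares are shares of sorted nuclei. The hM3 mice were also injected with AAV near the PVH and supraoptic nucleus, with a cargo not given in the sources used here.

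Avp encodes vasopressin, which magnocellular neurons of the PVH and supraoptic nucleus release into the blood from the posterior pituitary, where it makes the kidney retain water. Smaller vasopressin neurons lie in the parvocellular PVH and in the suprachiasmatic nucleus, the circadian clock. Hcrt encodes the precursor of orexin A and orexin B, which sustain wakefulness and feeding, and Pmch that of melanin-concentrating hormone (MCH), linked to sleep and energy storage. Orexin and MCH neurons are separate populations known from the lateral hypothalamus and its surroundings, beside the PVH. Peptide precursor mRNAs are so abundant in their own cells that lysis can leave free copies in the suspension, and these can reach droplets of every cell type. Free RNA was not measured directly here.

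The libraries held 4440 to 10904 nuclei and 52506958 to 76243280 UMIs (unique molecular identifiers, each marking 1 captured transcript). Median UMIs per nucleus ran from 3722 in CNO replicate 2 and 5451 in VPA to between 11068 and 11913 in the other 3. After filters on low counts, mitochondrial share and likely doublets, 29484 of 32292 nuclei were kept, of which 19053 were neuron-like and 8622 glia-like by fixed marker lists. Any pair of libraries shared 4 to 23 cell barcodes. Each condition except CNO is 1 library, so a condition and a library cannot be told apart there. Levels are in CPM, the UMIs of the gene per 1000000 UMIs of the same nuclei, and intervals are exact 95% Poisson or binomial (Clopper-Pearson) intervals that cover counting error only.

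Most nuclei had no UMI of these genes, and a few had very many. Avp had 1759 UMIs in saline, 1593 in VPA, 966 in the hM3 control, and 637 and 1832 in CNO replicates 1 and 2. Hcrt had 91, 71 and 70 UMIs in saline, VPA and the hM3 control against 777 and 1240 in the CNO replicates. Pmch had 216, 229 and 366 UMIs in the same 3 libraries and 969 and 1730 in the CNO replicates. Thus Avp was counted in all 5 libraries at a like order, whereas Hcrt and Pmch counts were highest in both CNO libraries. The 10 nuclei with most Hcrt held 50.7% of all its UMIs in CNO replicate 1, and 31.9% in CNO replicate 2.

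For Hcrt the counts left a gap between these nuclei and the rest. In CNO replicate 1, 165 neuron-like nuclei had 1 Hcrt UMI and 23 had 2, while 2 had 3 to 9, and 11 had 10 or more, the highest 55. In CNO replicate 2 the same classes held 175, 15, 3 and 14 nuclei, with 60 UMIs at most. In saline and VPA no neuron-like nucleus passed 2 Hcrt UMIs. Avp had no such gap: 30 saline neuron-like nuclei had 3 to 9 UMIs and 36 had 10 or more, and in VPA 60 had 3 to 9 and 20 had 10 or more. Pmch was nearer to Hcrt, with 0, 3, 2, 3 and 9 neuron-like nuclei at 3 to 9 UMIs in the 5 libraries and 5, 3, 7, 7 and 23 at 10 or more. Glia-like nuclei stayed at or below 3 Hcrt and 6 Pmch UMIs each. Their Avp maximum was 2, 8, 93, 12 and 11 UMIs by library, and the 93 lay in 1 astrocyte-like nucleus of the hM3 control that also held 72 Oxt UMIs.

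**Figure D1:**
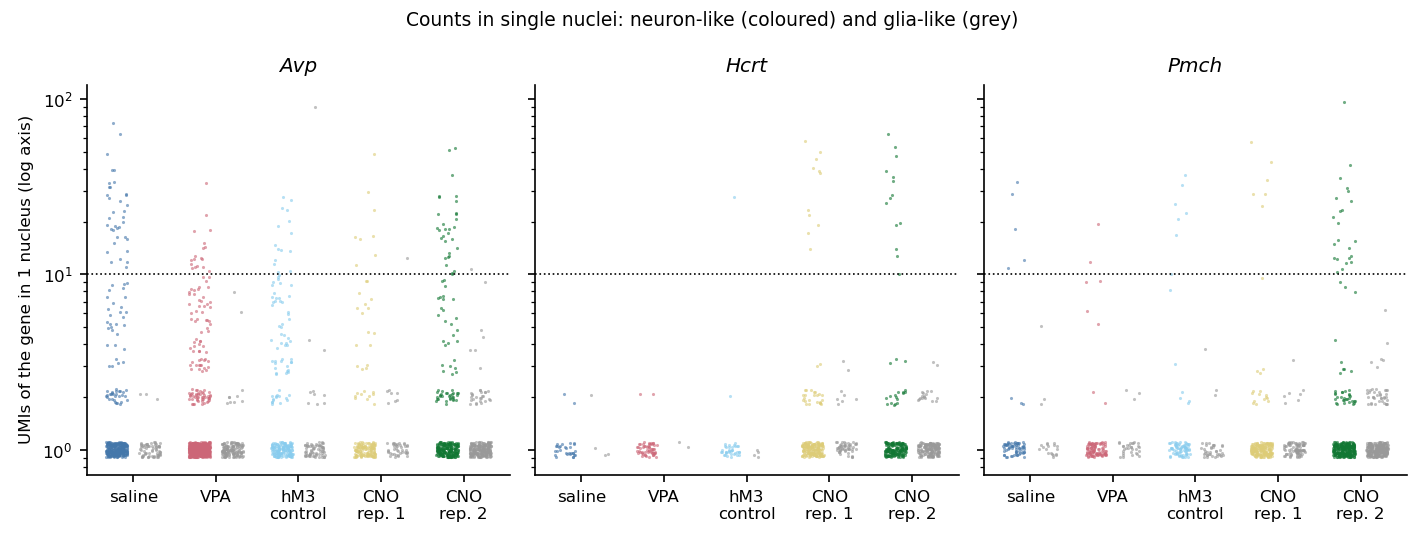
UMIs of Avp, Hcrt and Pmch in each nucleus with at least 1 (log axis, points moved slightly in both directions so that equal counts can be seen), with neuron-like nuclei in colour and glia-like nuclei in grey for each of the 5 libraries. The dotted line marks 10 UMIs; Hcrt leaves a gap between 3 and 10 UMIs in both CNO libraries, Avp fills that range, and 1 grey point of the hM3 control lies at 93 Avp UMIs.

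A nucleus was called high-count for a gene when it was neuron-like, held at least 10 UMIs of it, and these made at least 1000 CPM of its UMIs. This rule gave 91 high-count nuclei for Avp, 21 for Hcrt and 23 for Pmch. The Avp nucleus just inside the level limit had 1030 CPM and the nearest one outside 993. For Hcrt these were 1074 and 900, and for Pmch 1014 and 987. A further 22, 5 and 22 neuron-like nuclei with 10 or more UMIs lay under the level limit. Most UMIs therefore lay outside high-count nuclei. These held 49.8%, 17.5%, 18.2%, 28.1% and 24.02% of Avp UMIs in saline, VPA, hM3 control and CNO replicates 1 and 2, and 37.1%, 32.4% and 32.7% of Hcrt UMIs in the 3 hM3 libraries. Of Pmch UMIs they held 0%, 12.7%, 14.8%, 18.5% and 20.9%.

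Glia, which are not known to make these peptides, carried all 3 at levels that varied by library. Avp in glia-like nuclei was 58.9 CPM (interval 52.5 to 65.9) in CNO replicate 2, 36.0 (30.8 to 41.9) in VPA, 22.6 (19.5 to 26.2) in the hM3 control, 14.9 (11.7 to 18.8) in saline and 11.0 (8.56 to 14.0) in CNO replicate 1. Only saline and CNO replicate 1 overlapped as neighbours in that order. Counted per nucleus, VPA (0.0774, interval 0.0661 to 0.0901) and saline (0.0593, 0.0464 to 0.0747) overlapped too, and so did CNO replicate 2 (0.1365, 0.122 to 0.153) and the hM3 control (0.111, 0.0952 to 0.128). The median depth of glia-like nuclei was 1915 and 1979 UMIs in VPA and CNO replicate 2 against 3576 to 4140 in the other 3. Without the astrocyte-like nucleus with 93 UMIs the hM3 control stood at 11.1, level with CNO replicate 1. Hcrt in glia was 37.4 CPM (32.4 to 43.1) and 11.4 (8.85 to 14.4) in CNO replicates 2 and 1, against 1.03 (0.336 to 2.41) in saline, 0.498 (0.136 to 1.27) in the hM3 control and 0.431 (0.0522 to 1.56) in VPA. The last 3 were not distinguishable, and the highest Hcrt level was 86.8 times the lowest. Pmch in glia was 64.8 (58.1 to 72.1) and 16.8 (13.7 to 20.4) in CNO replicates 2 and 1, against 7.98 (5.62 to 11.0) in VPA, 5.60 (4.08 to 7.49) in the hM3 control and 5.58 (3.68 to 8.12) in saline, the last 3 again overlapping. The libraries with most Hcrt and Pmch in glia were thus those with most high-count nuclei of these genes.

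Neuron-like nuclei outside the peptide's own sub-cluster, described next, stood near the glia. Per nucleus they held 0.919 to 1.79 times the Avp, 1.17 to 8.15 times the Hcrt and 0.780 to 1.98 times the Pmch of glia-like nuclei, while their median depth was 3.21 to 5.07 times as high. In CPM their Avp was 0.231 to 0.419 and their Pmch 0.223 to 0.338 of the glial level. They still included a few high-count nuclei. For Pmch in CNO replicate 2, the library at 1.98, these were 6 nuclei of sub-cluster 5 and 1 of sub-cluster 3. The lowest Avp ratio on either scale was that of the hM3 control, where 1 astrocyte-like nucleus held 93 of 182 glial Avp UMIs. Without it, glia there held 11.1 CPM and 0.0542 UMIs per nucleus, against 5.22 and 0.102 in these neurons. For Hcrt this ratio was 0.194 to 0.436 in the CNO libraries, and 0.566, 2.55 and 1.30 in saline, VPA and the hM3 control, where glia held 5, 2 and 4 Hcrt UMIs. In CNO replicate 2, 12.8% of glia-like and 14.1% of other neuron-like nuclei had a Pmch UMI, at median depths of 1979 and 10019 UMIs. Thinned to 1000 UMIs per nucleus, these shares were 6.78% and 1.86%. Per UMI, neuron-like nuclei outside the sub-clusters were thus not above glia, apart from Hcrt in VPA and the hM3 control.

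The mix of peptides in glia was close to that of the whole library in some cases and apart from it in others. Avp made up 24.2%, 26.9%, 33.0%, 54.0% and 31.8% of the Avp and Oxt UMIs in glia-like nuclei, and 34.9%, 30.6%, 29.0%, 46.3% and 36.0% in all kept nuclei. CNO replicate 1 was highest in both. It was also the only one of the 5 libraries whose interval for all glia (44.9 to 63.0%) held the value of the library. Taken by glial class, where counts are smaller and intervals wider, the interval held the library's value in 10 of 15 cases with at least 20 such UMIs. Hcrt made up 40.4% and 36.6% of Hcrt and Pmch UMIs in glia of the CNO replicates, and 44.9% and 42.6% in all their nuclei. By glial class over all 5 libraries, the interval for this pair held the library's value in 6 of 8 cases. For all glia the interval held the library's value in CNO replicate 1 (32.9 to 48.1%) and not in CNO replicate 2 (32.5 to 40.9%). It also held it in saline (5.28 to 32.8%, library 15.7%) and the hM3 control (2.27 to 19.6%, library 16.6%). In VPA it did not (0.627 to 17.3%, library 23.2%).

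**Figure D2:**
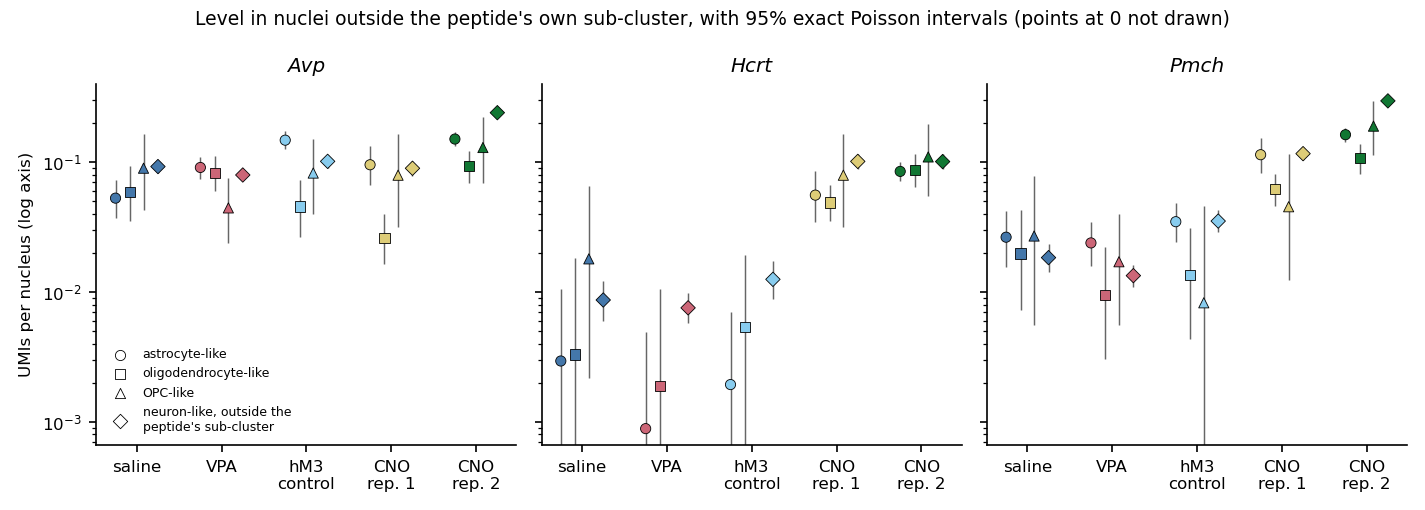
UMIs per nucleus (log axis) of Avp, Hcrt and Pmch in astrocyte-like, oligodendrocyte-like and oligodendrocyte progenitor (OPC)-like nuclei, and in neuron-like nuclei outside the peptide's own sub-cluster, for each library, with exact 95% Poisson intervals. Hcrt and Pmch lie higher in the astrocyte-like, oligodendrocyte-like and neuron-like nuclei of both CNO libraries than in those of saline, VPA and hM3 control, intervals of the progenitors partly overlap, and Avp differs less between libraries.

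Avp high-count nuclei were found in every library, 33 in saline, 20 in VPA, 9 in the hM3 control, and 8 and 21 in CNO replicates 1 and 2. Their share of neuron-like nuclei was 0.867% (0.598 to 1.22), 0.265% (0.162 to 0.409), 0.304% (0.139 to 0.577), 0.320% (0.138 to 0.629) and 0.940% (0.583 to 1.43) in that order. Saline and CNO replicate 2 were high, and the other 3 overlapped each other. The share in VPA was 0.602 points lower than in saline (difference -0.966 to -0.297 points, counting error), at median depths of 6141 and 13267.5 UMIs per neuron-like nucleus. The part of depth in this difference was not tested. The mean of the CNO replicates was 0.326 points above the hM3 control. Replicate 1 alone differed from the control by 0.0156 points (-0.312 to 0.366) and replicate 2 alone by 0.635 points (0.186 to 1.16), so the difference of the mean came from replicate 2. None of these comparisons has a replicate on both sides, and 1 library against 2 cannot go below an exact permutation p of 0.333.

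Neurons were also sub-clustered with the peptide genes left out, so that membership did not rest on the peptide's own count. Sub-cluster 30 took 88 of the 91 Avp high-count nuclei. Its leading genes other than Avp included Pla2r1, Caprin2 and Ebf3. It had 261 nuclei, 64, 101, 47, 11 and 38 by library, which were 1.68%, 1.34%, 1.59%, 0.440% and 1.70% of neuron-like nuclei. Only CNO replicate 1 stood apart, with an interval of 0.220 to 0.786%. By this count VPA was 0.344 points below saline (-0.867 to 0.134), and the CNO mean was 0.519 points below the control instead of above it. This rested on CNO replicate 1, at -1.15 points (-1.71 to -0.606), while replicate 2 differed from the control by 0.111 points (-0.605 to 0.865). Nuclei of mixed or unnamed clusters that met the high-count limits for Avp, 2 in CNO replicate 2, were not counted.

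Avp in sub-cluster 30 was at 1228 (1155 to 1304) in saline, 810 (745 to 880) in VPA, 514 (465 to 566) in the hM3 control, and 1049 (904 to 1210) and 1397 (1279 to 1523) in CNO replicates 1 and 2. Saline overlapped with both CNO replicates, which did not overlap each other, and VPA and the hM3 control each lay apart. The log2 ratio of VPA to saline was -0.60 (-0.75 to -0.45), and those of CNO replicates 1 and 2 to the hM3 control were 1.03 (0.77 to 1.28) and 1.44 (1.25 to 1.63). The median nucleus had 1054, 682, 447, 1235 and 1287 CPM, in the same order of libraries except that CNO replicate 1 lay above saline. In VPA, 15 of 101 nuclei had no Avp UMI against 1 of 64 in saline, at median depths of 6496 and 12433.5 UMIs. Within high-count nuclei, which the rule holds above a minimum, levels were closer, at 1899, 1710, 1413, 1604 and 2114 CPM.

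A lower level of Avp was seen in sub-cluster 23, led by genes that include Rorb and Rgs16 of the suprachiasmatic list. Its 330 nuclei fell 4, 203, 65, 57 and 1 by library. They held 0.468, 0.862 and 1.54 Avp UMIs per nucleus in VPA, hM3 control and CNO replicate 1, where glia-like nuclei, without the nucleus of each library with most Avp, held 0.0737, 0.0542 and 0.0412. The median sub-cluster of the 62 had 6.32 Avp UMIs CPM, sub-cluster 23 had 73.4 and sub-cluster 30 had 942. Of its nuclei, 233 had no Avp UMI, 32 had at least 3 and the highest had 11.

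**Figure D3:**
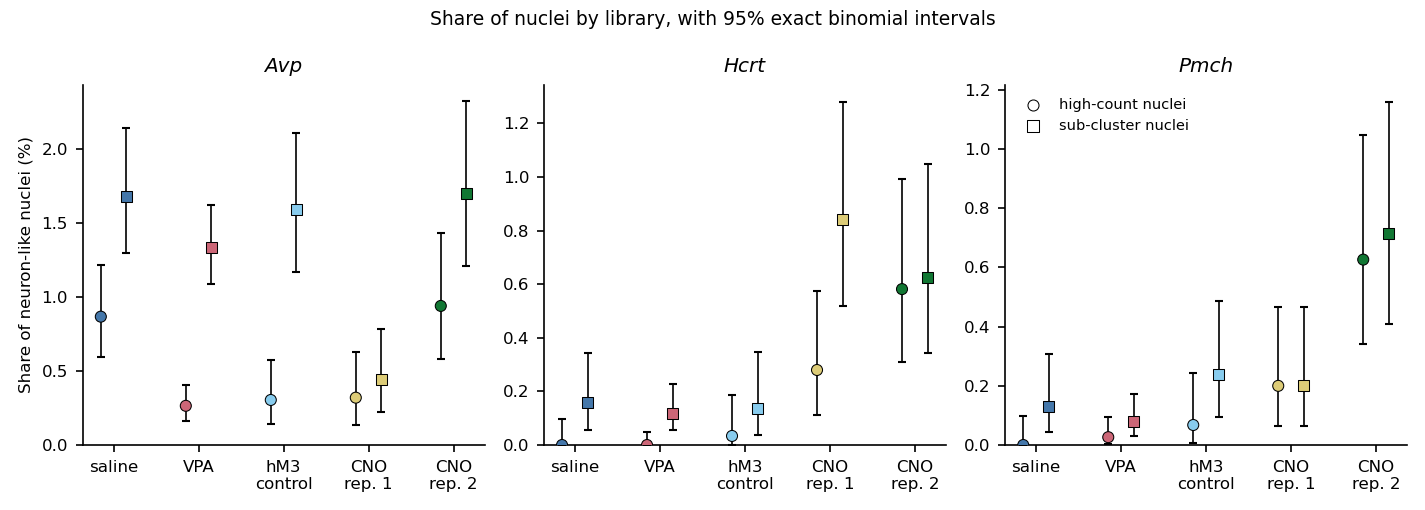
Share of neuron-like nuclei (percent) that were high-count for Avp, Hcrt or Pmch (circles), or that lay in the sub-cluster holding most high-count nuclei of the gene (squares), in each library, with exact 95% binomial intervals. The 2 measures of Avp part without overlap in saline, VPA and the hM3 control, where the sub-cluster is 1.68%, 1.34% and 1.59% of neurons and high-count nuclei 0.867%, 0.265% and 0.304%; Hcrt and Pmch lie highest in a CNO library by both.

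**Figure D4:**
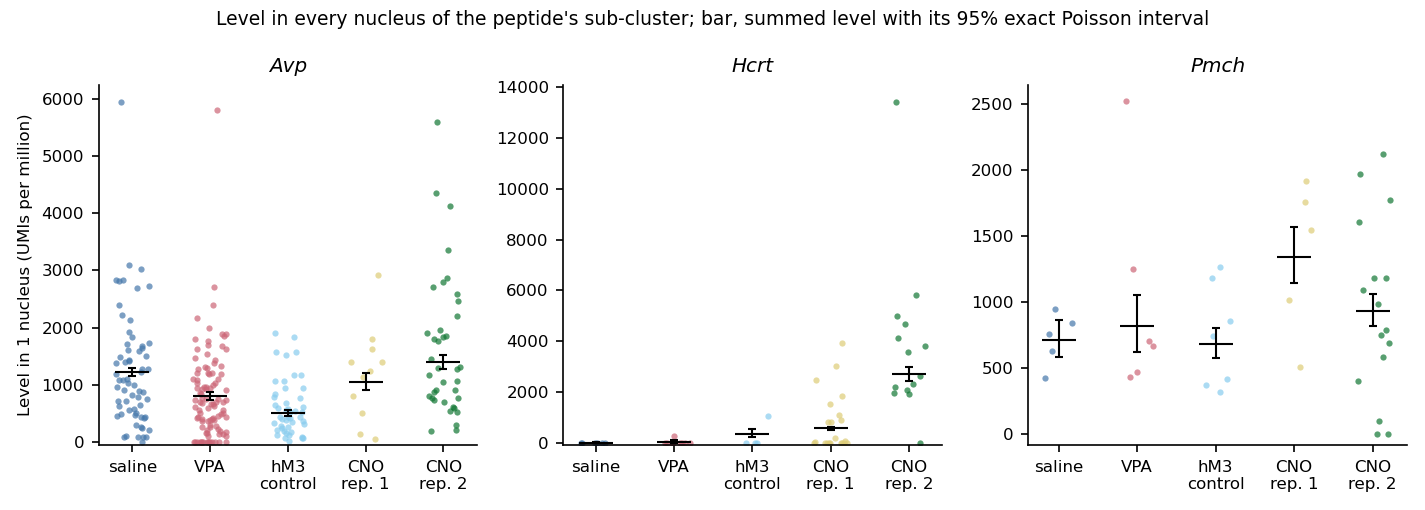
UMIs of the gene CPM in each nucleus of its sub-cluster (points; linear axes that differ between panels), and in the summed nuclei of each library (bar with exact 95% Poisson interval). Summed Avp is lowest in the hM3 control (514), Hcrt is highest in CNO replicate 2 (2710), and summed Pmch runs from 686 to 1343.

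Avp high-count nuclei also carried genes of magnocellular and PVH neurons. Their summed counts were compared with those of the other neuron-like nuclei of the same library in 5 library pairs, with edgeR's quasi-likelihood test, the library as a block and Benjamini-Hochberg adjustment over 15566 genes. At an adjusted p under 0.05, 2237 genes were called (14.4%), 635 higher (4.08%) and 1602 lower (10.3%). DESeq2 called 589 higher and 974 lower. In edgeR the median log2 fold change over all genes was -0.17. Of the 12 genes on the magnocellular and PVH list 8 were higher and none lower, with a list median of 2.69. Caprin2, an RNA-binding protein known to bind vasopressin mRNA, had 839, 1078, 1140, 565 and 471 CPM in high-count nuclei against 53.5, 48.3, 39.8, 29.9 and 40.7 in other neurons. It was higher in all 5 libraries (log2 fold change 4.04 ± 0.16 SE, edgeR adjusted p = 2.64e-133).

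The transcription factors of this list went the same way. Sim1, needed for the PVH to form, had 1030, 931, 642, 789 and 615 CPM against 127, 105, 94.1, 47.6 and 77.8 (3.01 ± 0.16, edgeR adjusted p = 1.45e-77). Pou3f2 and Otp, which act with Sim1 in making these neurons, had log2 fold changes of 3.16 and 2.58, and Arnt2, Sim1's partner, 0.90. Creb3l1, a transcription factor known to act on Avp, had 3.39, though it was at 0 in the high-count nuclei of CNO replicate 2. Pdyn, the dynorphin precursor that vasopressin neurons make, had 30.4, 49.0, 48.2, 35.8 and 4.81 CPM against 1.98 to 2.46 (3.63 ± 0.42, edgeR adjusted p = 1.41e-16). These values rest on few UMIs in each library, so the libraries were not ranked. Kcnmb4, a subunit of calcium-activated potassium channels, had 2.81. Oxt (0.16), Gal (1.17), Calb1 (0.07) and Slc17a6 (0.24) did not pass the test.

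Among the called genes with the highest folds, picked for the same direction in every library, Pla2r1, a phospholipase A2 receptor, had 73.7, 116, 136, 117 and 91.3 CPM against 0.390 to 2.86 (5.59 ± 0.30, edgeR adjusted p = 1.32e-72). Ebf3, a transcription factor, had 287 to 509 CPM against 14.5 to 29.8 (3.94), and Cdh9, a cell adhesion protein, 615 to 1236 against 43.3 to 74.7 (3.50). The others at the top were Gm28807 (5.75), the intermediate filament gene Vim (4.13), Gm43122 (3.82), Ly75 (3.52), Tmprss9 (3.50) and Gm44593 (3.25). At the other end, none of the 6 genes named by the rule had a UMI in any Avp high-count nucleus. Against a floor of 3 counts over the group, Kitl, the ligand of the Kit receptor, was at least 15.8-fold lower, Cacna1i, a T-type calcium channel, and Gfra2, a co-receptor for neurturin, at least 13.9-fold lower, and Cemip, Col16a1 and Gm30003 at least 12.1-, 9.27- and 8.44-fold lower.

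Of 10 genes of peptide processing and granules, 1 was higher, 4 were lower and 5 did not pass in Avp high-count nuclei (list median -0.29). Pcsk1, a convertase that cuts peptide precursors, had 149 to 353 CPM against 28.4 to 37.5 (2.42 ± 0.16, edgeR adjusted p = 2.66e-46). Scg2, a granin of secretory granules, had 8.96 to 32.1 against 37.2 to 68.6 (-1.68 ± 0.31, edgeR adjusted p = 1.79e-06). Pcsk2 (-0.49), Chga (-0.96) and Chgb (-1.13) were lower too, but were not called by DESeq2 or without TMM normalisation. The inhibitory transmitter genes Gad1 (-2.60) and Gad2 (-3.97) were lower, and Tacr3, a neurokinin receptor, was higher (2.03).

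Marker genes of neighbouring populations went both ways in Avp high-count nuclei, to be read beside the 4.08% of all genes that were higher and the 10.3% that were lower. Of the Crh list none was higher and Cartpt was lower, a call that DESeq2 did not make, while Crh, Scgn and Cartpt had no UMI. Of 5 suprachiasmatic genes tested none was higher and Syt10 (-4.14) and Rorb (-1.42, not called by DESeq2) were lower. Of 7 orexin-neuron genes tested Pdyn was higher, Lhx9 and Ebf2 (-3.59) lower, and Lhx9 had no UMI. Of 10 MCH-neuron genes Tacr3 and Otp were higher, and Gad1, Gad2, Cartpt and Nptx1 lower, the last 2 with no UMI and not called by DESeq2.

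Set against Oxt high-count nuclei, chosen by the same rule, 247 of 4255 genes tested were higher in Avp nuclei (5.80%) and 366 lower (8.60%) by edgeR's quasi-likelihood test, 613 in all (14.4%). There were 33, 20, 9, 7 and 21 Avp nuclei against 39, 29, 20, 7 and 26 Oxt nuclei, leaving out those high for both. This comparison was added after the data had been seen. Galntl6, a glycosyltransferase gene, had 12187, 15295, 15154, 10747 and 11115 CPM in Avp nuclei against 1136, 1668, 1679, 1257 and 1078 in Oxt nuclei (3.26 ± 0.13, edgeR adjusted p = 9.71e-11). Bcl11a, a transcription factor, had 139 to 310 CPM against 0 to 7.14 (7.19), Ebf3 277 to 509 against 0 to 17.6 (6.59) and Pla2r1 73.7 to 139 against 0 to 1.45 (6.68). These 4 genes were picked for a high fold and the same direction in every library.

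Others higher in Avp nuclei were Maml3 (4.52), Gda (4.45), Bcl11b (4.28), Dlk1 (4.18), Il1rapl2 (3.94), Mcc (3.72), Rtn4rl1 (3.31) and Kctd16 (3.17). Lower in them were Gm28928 (-6.61), Gsg1l (-5.81), A830018L16Rik (-5.32), Galnt14 (-5.10) and the extracellular matrix gene Reln (-4.84). Nos1, which makes nitric oxide, had 0 to 18.4 CPM in Avp nuclei against 107 to 374 in Oxt nuclei (-4.54 ± 0.27, edgeR adjusted p = 8.19e-09). Of 8 magnocellular and PVH genes tested, Caprin2 (1.40) and Kcnmb4 (1.08) were higher, as were Pou3f2 (0.68) and Arnt2 (0.60), which DESeq2 did not call. Sim1 (0.40) and Otp (-0.10) did not pass the test. Pam, which amidates peptides, was lower (-1.33, edgeR adjusted p = 2.17e-05) and Pcsk2 higher (0.74, not called by DESeq2).

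Hcrt high-count nuclei were counted only in hM3 libraries, 1 in the hM3 control, and 7 and 13 in CNO replicates 1 and 2, or 0.0338% (0.000856 to 0.188), 0.280% (0.113 to 0.576) and 0.582% (0.310 to 0.993) of neuron-like nuclei. The count of 0 in saline and in VPA allows a share of up to 0.0788% and 0.0397%, taking 3 counts as the limit, and the exact upper bounds are 0.0969% and 0.0488%. The saline library did hold 1 nucleus with 52 Hcrt UMIs, which had been removed as a likely doublet. The CNO mean was 0.397 points above the hM3 control, 0.246 points in replicate 1 (0.0184 to 0.544) and 0.548 points in replicate 2 (0.235 to 0.960). The CNO replicates both lay above the control beyond counting error, with no second control library to give a spread. Their levels were 1074 CPM in the control nucleus, and 1986 (1748 to 2247) and 3168 (2867 to 3492) in CNO replicates 1 and 2. A nucleus with 62 Hcrt UMIs, in CNO replicate 1, lay in an unnamed cluster led by mitochondrial genes and was not counted. Nor were 5 nuclei of a mixed cluster in CNO replicate 2 with 10 or more Hcrt UMIs, up to 45, of which 1 met both limits.

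Sub-cluster 56 took 20 of the 21 Hcrt high-count nuclei. It had 54 nuclei, 6, 9, 4, 21 and 14 by library, or 0.158%, 0.119%, 0.135%, 0.840% and 0.626% of neuron-like nuclei. Its Hcrt level was 0 in saline (up to 46.5), 30.4 (3.68 to 110) in VPA, 367 (240 to 538) in the hM3 control, and 581 (520 to 647) and 2710 (2452 to 2986) in CNO replicates 1 and 2. The sub-cluster was therefore present in all 5 libraries, and 6 of 6, 8 of 9, 3 of 4, 9 of 21 and 1 of 14 of its nuclei had no Hcrt UMI. The sub-cluster next in Hcrt level had 14.4 CPM.

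Other genes of sub-cluster 56 were counted in its nuclei with 10 or more Hcrt UMIs and in the rest. Npvf, the precursor of RFamide-related peptides made by dorsomedial hypothalamic neurons, had 55 UMIs in 9 of its nuclei and none in the 24 nuclei with 10 or more Hcrt UMIs. Of these Npvf UMIs 47 lay in CNO replicate 1. Rfx4, a transcription factor, had 835 CPM in the 24 nuclei and 198 in the other 30, Scg2 806 and 355, Plagl1 309 and 93.9, Lhx9 111 and 77.6, and Ros1, the other way, 138.5 and 241. Rfx4 and Ros1 kept these directions in each of the 3 libraries with both sets. Scg2 did not in the hM3 control (165 and 343.5), nor Lhx9 (140.5 and 277) and Plagl1 (289 and 415) in CNO replicate 2, where 13 of the 14 nuclei had 10 or more Hcrt UMIs. No test was made, since both sets were cut from 1 sub-cluster by the Hcrt count.

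Only 2 libraries reached the minimum set here for a gene test, 3 high-count nuclei in each of 3 libraries, so none was run for Hcrt. The genes most like it were ranked by the log2 ratio of summed levels with 10 CPM added to each. Rfx4 led, at 1239, 528 and 788 CPM in the high-count nuclei of hM3 control and CNO replicates 1 and 2, against 9.86 in other neurons of these libraries (log2 ratio 5.18). Hmcn1 (4.53), C1ql3 (4.52), Scg2 (3.74), Gm867 (3.72), the receptor kinase gene Ros1 (3.68), Lypd6 (3.67), Gm20631 (3.58), Pde3a (3.55), Rgs6 (3.33), Nek7 (3.31) and Gm13849 (3.304) followed, each higher in all 3 libraries, as the rule for naming them asked. Scg2 had 165, 835 and 1030 CPM against 55.7, so the granin that was low in Avp nuclei was high in the CNO Hcrt nuclei.

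Of 25667 genes with a UMI in these libraries' neuron-like nuclei, 553 had a log2 ratio over 1 (2.15%), and the median was -0.01. The 10 CPM added draws genes of low level towards 0. Among the 2808 genes with at least 20 UMIs in the high-count nuclei, 238 had a log2 ratio over 1 (8.48%), and the median was 0.18. On the orexin-neuron list, counted whole like the others, 5 of 8 did, with a median of 2.48. Nptx2 had 14 UMIs in the high-count nuclei, and Ebf2 and Npvf had 0. The 5 were Rfx4, Plagl1 (3.05), Pdyn (2.87), Lhx9 (2.85) and Nptx2 (2.11). Lhx9 is a transcription factor known to mark orexin neurons, which also make dynorphin from Pdyn. Of the processing list 4 of 10 did, Scg2, Pcsk1 (3.11), Scg3 (1.38) and Pam (1.27). Of the magnocellular and PVH list 3 of 12 did, Pdyn, Creb3l1 (1.68) and Calb1 (1.51), and of the suprachiasmatic list 1 of 8, Rorb (2.70). None of the receptor, MCH-neuron and Crh lists did. Of the listed genes over 1, Nptx2, Pam, Creb3l1 and Rorb were higher in 2 of the 3 libraries, and the others in all 3.

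Pmch high-count nuclei numbered 0, 2, 2, 5 and 14 in saline, VPA, hM3 control and CNO replicates 1 and 2. These were 0% (exact upper bound 0.0969%), 0.0265% (0.00321 to 0.0956), 0.0676% (0.00819 to 0.244), 0.200% (0.0649 to 0.466) and 0.626% (0.343 to 1.05) of neuron-like nuclei. Only CNO replicate 2 lay clear of saline, VPA and the hM3 control. The CNO mean was 0.346 points above the hM3 control, 0.132 points in replicate 1 (-0.0898 to 0.405) and 0.559 points in replicate 2 (0.225 to 0.985). Their level was 1869 CPM in VPA, 1241 in the hM3 control, and 1424 and 2414 in CNO replicates 1 and 2. The nucleus with most Pmch, 169 UMIs in CNO replicate 1, lay in the same unnamed cluster as the one with 62 Hcrt UMIs. In mixed or unnamed clusters, which were not counted, 2 nuclei of CNO replicate 1 and 1 of CNO replicate 2 met the limits for Pmch. Nuclei that were neither neuron-like nor glia-like held 37.7% of the Pmch UMIs of CNO replicate 1, against 18.5% in its high-count nuclei.

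The rule on level mattered most for Pmch. In saline 5 neuron-like nuclei had 12 to 36 Pmch UMIs, but at a median depth of 27977 UMIs none reached 1000 CPM. Sub-cluster 58, formed without the peptide genes, had 39 nuclei, 5, 6, 7, 5 and 16 by library, or 0.131%, 0.0794%, 0.237%, 0.200% and 0.716% of neuron-like nuclei. Its Pmch level was 717 (590 to 865), 819 (625 to 1054), 686 (580 to 806), 1343 (1145 to 1567) and 934 (817 to 1064) CPM. Nuclei with intense Pmch thus occurred in all 5 libraries at levels from 686 to 1343 CPM, and CNO replicate 2 had the largest share.

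More than 1 kind of nucleus shared the Pmch count. Of the 23 high-count nuclei, 15 lay in sub-cluster 58 and 6, all in CNO replicate 2, in sub-cluster 5. Sub-cluster 5 had 606 nuclei, 353 of them in VPA. In saline and VPA no neuron-like nucleus outside sub-cluster 58 held more than 2 Pmch UMIs. The 15 had Cartpt, a co-transmitter of many MCH neurons, at 350 CPM (280 to 432), and the 6 had none (up to 90.7). Tacr3 was at 309 (244 to 387) and 98.4 (26.8 to 252), Kcng3 at 281 (218 to 355) and 24.6 (0.623 to 137), and Igf1 at 399 (324 to 486) and 664 (438 to 966). The 6 had a median of 5016 UMIs per nucleus against 13488 in the 15, and the highest Pmch level among them was 24037.1 CPM against 2522.

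No gene test was run for Pmch at the rule used above, since only 2 libraries reached the minimum of 3 nuclei. At a looser rule of 5 UMIs and 500 CPM there were 4, 4, 4, 7 and 24 nuclei. By edgeR's quasi-likelihood test on 5 library pairs 1698 of 15520 genes were called (10.9%), 546 higher (3.52%) and 1152 lower (7.42%). DESeq2 called 499 higher and 557 lower. In edgeR the median log2 fold change over all genes was -0.21. Cartpt had 239, 187, 152, 268 and 226 CPM in Pmch nuclei against 2.88 to 6.10 in other neurons (5.66 ± 0.25, edgeR adjusted p = 4.63e-107). Tacr3 had 399, 534, 421, 263 and 447 against 6.29 to 9.49 (5.45 ± 0.20, edgeR adjusted p = 4.31e-158). Neither overlapped with other neurons in any library.

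Otx1, a homeobox gene, had the largest log2 fold change of those named (7.75), with 39.4 to 134 CPM against 0.156 to 0.337. Nkx2-1, a transcription factor of the ventral hypothalamus, had 26.7 to 104 against 0.462 to 3.21 (4.89), and Igf1, a growth factor, 168 to 721 against 6.95 to 15.2 (5.13). The rest of the top 12 were Tnfaip8 (6.38), the potassium channel gene Kcng3 (6.08), Dab2 (5.46), Ccbe1 (5.32), Popdc3 (4.61), Palmd (4.57) and Nptx1 (4.24). Pmch nuclei had no UMI of AC129186.1, at least 9.48-fold lower against a floor of 3 counts over the group, and none of Dock1, Gm44593, Itga6, Adcy7 and Cnksr3, at least 4.44- to 6.17-fold lower.

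On the MCH-neuron list 5 of 10 genes were higher, 4 lower and 1 did not pass (list median 0.02, or 0.48 with genes at 0 UMIs set at their bound). Besides Cartpt, Tacr3 and Nptx1 these were Gad1 (1.10) and Parpbp (3.001), whose span covers Pmch on the other strand, so that without a stated strand setting its reads and those of Pmch cannot be told apart. Lower were Gad2 (-2.56), Slc17a6 (-1.06), Cnr1 (-1.37) and Otp, which had no UMI. DESeq2 did not call Slc17a6 and Cnr1. The transmitter genes thus did not go together, Gad1 being higher and Gad2 lower.

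On the processing list Pcsk2, a convertase, had 6517, 4778, 4824, 5157 and 2844 CPM in Pmch nuclei against 454 to 621 (2.96 ± 0.17, edgeR adjusted p = 3.34e-66), and Chga was higher too (0.89). Scg2 (-1.79) and Scg5 (-0.83) were lower, and 6 of 10 did not pass (list median -0.45). Pcsk1, which was higher in Avp nuclei, had a log2 fold change of -1.02 here and did not pass. On the magnocellular and PVH list 6 of 12 were lower, Oxt (-1.81), Sim1 (-1.04), Caprin2 (-0.98), Calb1 (-1.82), Slc17a6 and Otp. Of these DESeq2 called Calb1, gave no adjusted p for Otp and did not call the other 4. Creb3l1 was higher (2.17), also not called by DESeq2.

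**Figure D5:**
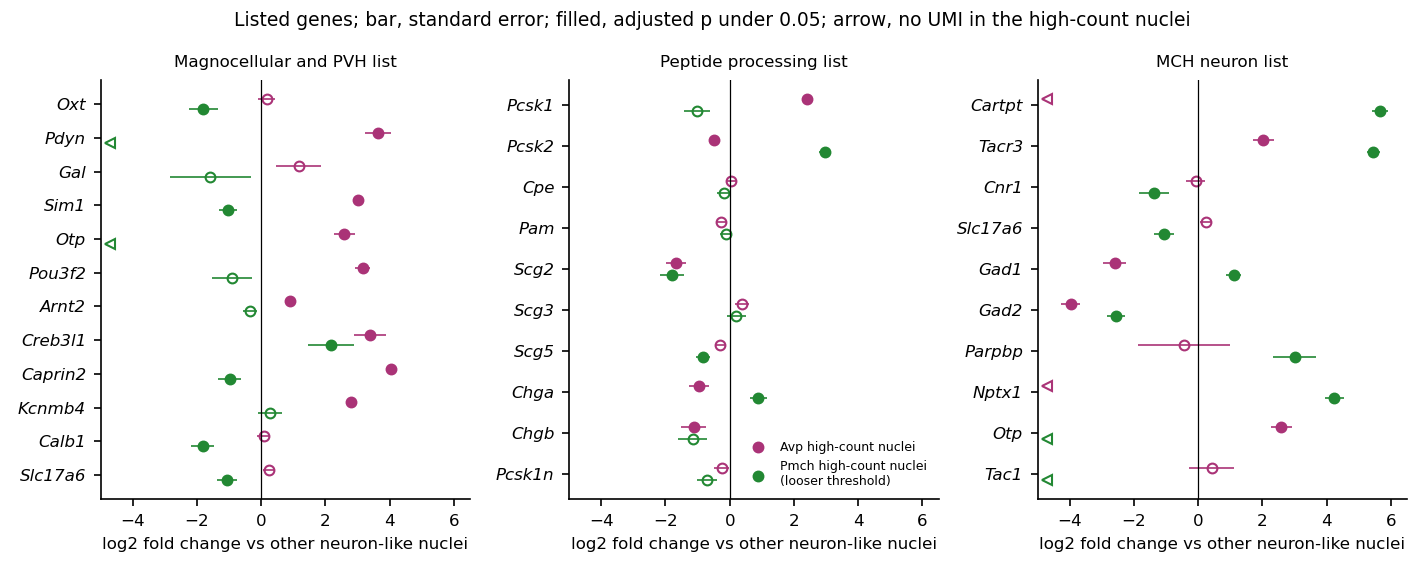
Log2 fold change (edgeR, bars are standard errors) of listed genes in Avp high-count nuclei (purple) and in Pmch high-count nuclei at the looser rule (green) against other neuron-like nuclei of the same 5 libraries; filled points have an adjusted p under 0.05, and arrows mark genes with no UMI in the high-count nuclei. Caprin2 (4.04) and Sim1 (3.01) lie to the right in Avp nuclei, Cartpt (5.66) and Pcsk2 (2.96) in Pmch nuclei.

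Hardly any kept nucleus was intense for more than 1 peptide. Nuclei removed as likely doublets, some of which met the limits for a peptide, were left out of this count. The effect of that filter on it was not tested. No kept nucleus held 10 or more UMIs of both Hcrt and Pmch, of Avp and Hcrt, or of Avp and Pmch. Avp and Oxt both reached 10 UMIs in 4 nuclei, 2 neuron-like and 2 astrocyte-like. Their counts were 23 Avp and 30 Oxt UMIs in a neuron-like nucleus of the hM3 control, 25 and 18 in a neuron-like nucleus of CNO replicate 1, 93 and 72 in the astrocyte-like nucleus of the hM3 control and 11 and 29 in an astrocyte-like nucleus of CNO replicate 2. High-count Avp nuclei held 0.364, 0.200, 0.222, 2.38 and 0.571 Oxt UMIs each by library, against 0.185, 0.211, 0.225, 0.0427 and 0.293 in glia-like nuclei. In CPM these were 26.0, 24.5, 16.05, 170 and 57.7 against 46.5, 97.9, 45.9, 9.39 and 126.6, below glia except in CNO replicate 1. CNO replicate 1 stood apart, where 1 of its 8 Avp nuclei was the one with 18 Oxt UMIs.

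Receptors for these peptides were sparse in neuron-like nuclei, apart from Hcrtr2. The orexin receptor Hcrtr2 was at 43.5, 33.1, 36.5, 29.4 and 31.5 CPM in neuron-like nuclei of the 5 libraries and at 182.5 in the sub-cluster where it was highest. Hcrtr1, the other orexin receptor, was at 2.25 to 4.40, and the MCH receptor Mchr1 at 0.731 to 1.64. The vasopressin receptors Avpr1a, Avpr1b and Avpr2 were at 0.209 to 0.708, 0 to 0.0577 and 0.0522 to 0.129, and the oxytocin receptor Oxtr at 0.348 to 1.09. Of the 3 receptors tested Hcrtr2 was lower in Avp high-count nuclei (-1.58 ± 0.36, edgeR adjusted p = 1.66e-04) and in Pmch nuclei at the looser rule (-2.59 ± 0.54, edgeR adjusted p = 3.99e-05), the second not called by DESeq2.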

How the data were processed

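The deposited files hold raw UMI counts per gene and nucleus, made by the authors with Cell Ranger 7.0.1 per the file headers and the submitters' processing notes, which name the build mm10. Intron and strand settings are not given in the sources used here. From these counts, nuclei with under 1000 UMIs or over 5% mitochondrial UMIs were dropped. Doublet scores came from Scrublet in scanpy 1.11.5. Its own threshold called under 0.5% of nuclei in 3 libraries, so the top-scoring 0.8% per 1000 nuclei were removed from each library, together with all nuclei tied at the last score (3.95 to 8.82% in all). Nuclei were clustered on 2000 variable genes, 30 principal components and Leiden (38 clusters, resolution 1), and neurons again without the peptide genes (62 sub-clusters, resolution 2). Clusters were named from 12 fixed marker lists, and clusters that did not meet the rule were left unnamed or called mixed. The median UMIs per nucleus (3722 to 11913) set the precision of each value.

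Summed counts were tested with edgeR 4.0.16 (quasi-likelihood, TMM, low counts filtered, the library as a block) where at least 3 libraries had 3 or more high-count nuclei. The peptide gene itself was left out of its own test. The 12 highest and 6 lowest genes by log2 fold change were named, among those at an adjusted p under 0.05 with the same direction in every library and at least 20 UMIs, besides all listed genes. On data simulated for the Avp comparison over 15777 genes, 17.2% of 2-fold and 54.4% of 4-fold changes were recovered and 4 unchanged genes were called. Libraries are of pooled mice and only the CNO group has 2, so no test between conditions was run and values are given by library. Alternatives covered thresholds, doublets, filters, normalisation, DESeq2 1.42.0, the replicate block and each library left out. The 3 genes, the lists and the tests were chosen with earlier results of these data known.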

Additional observations from a re-analysis of the deposited data

Results flagged for a closer look

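The saline library held 91 Hcrt UMIs, and 52 of them lay in 1 nucleus of 21950 UMIs that was removed by its doublet score, so that it entered no comparison. No kept neuron-like nucleus of that library was high-count for Hcrt, and the other 39 Hcrt UMIs were spread over nuclei with at most 2 each. With this nucleus the saline library would not be at 0.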

How the results depend on the processing

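Of 133 alternative values for the comparisons, 122 moved by less than their error (counts of genes by under 1.5 times) and 11 by more, the causes of which were not tested, and no tested call reversed. At the stricter rule of 20 UMIs and 2000 CPM, Avp in VPA was 0.250 points below saline (value -0.250). The Pmch share in VPA minus saline turned from 0.0265 to -0.0917 points with 10 UMIs and no level limit, -0.0521 at the looser rule and -0.0519 by sub-cluster, and was 0 at the stricter rule. The glial Avp log2 ratio of CNO to control turned from 0.63 to -1.04 without CNO replicate 2. In the control, 93 of 182 glial Avp UMIs lay in 1 astrocyte-like nucleus, without which the control was level with CNO replicate 1. Counted by sub-cluster, the Avp share under CNO was -0.519 points from the control instead of 0.326 (0.111 without CNO replicate 1), and log2 level ratios were -0.60 for Avp in VPA, 1.25 for Avp under CNO and 2.16 for Hcrt under CNO. The last was 0.66 and 2.88 in CNO replicates 1 and 2, against a control whose 26 Hcrt UMIs lay in 1 of 4 nuclei. In glia-like nuclei without neuronal marker UMIs the Pmch log2 ratio of VPA to saline was 1.37. DESeq2 called 1056 genes for Pmch and 397 for Avp against Oxt; the latter had 936 calls without the filter. Leaving out 1 library gave 1559 to 2027 calls for Avp, 1258 to 1551 for Pmch and 408 to 597 for Avp against Oxt, lowest without saline. The share of calls that were higher went from 28.4% to 42.1% without TMM for Avp, where the median log2 fold change over all genes moved from -0.17 to -0.02, and from 32.2% to 47.2% with DESeq2 for Pmch. Without the replicate block 1897, 1504 and 494 genes were called. The labels number only the CNO libraries, so no pairing between conditions was made, and the block is the library that both sets of nuclei come from. Of 519 values of named genes 518 kept their call; Cnksr3 in Pmch nuclei lost it without the block. Gene tests for Hcrt and for Avp at the stricter rule were not run, since only 2 libraries had the 3 nuclei set as a minimum. Few high-count nuclei (21 for Hcrt, 23 for Pmch) limit the precision of their values.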
